A study of Mus musculus with 7 samples.

Results

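The 10 genes described here encode PHD finger proteins of the Phf series: Phf2, Phf3, Phf6, Phf8, Phf10, Phf12, Phf13, Phf20, Phf21a and Phf23. The set was listed by name because Phf23 and Phf12 carry Pygo2 peaks near the top of the deposited Pygo2 list, so the Pygo2 peaks at these 2 genes are what chose the set. All 10 were found among the 21887 protein-coding genes of RefSeq's GRCm38.p6 annotation (mm10). The study used chromatin immunoprecipitation followed by sequencing (ChIP-seq) on wild-type branchial arches of the mouse, the segments beside the embryonic throat from which much of the face and neck is built, taken at 10.5 dpc. Of the 7 libraries (Pygo2 ChIPs, β-catenin ChIPs and inputs, each as BA1 and BA2, and IgG BA1), the peak lists of the Pygo2 BA2 and β-catenin BA2 ChIPs were used, both called by the authors against IgG BA1, per the file headers. The names the authors gave the lists read IgG-BA2, where BA2 may refer to the ChIP or to the control, and the headers were followed. The labels do not say what BA1 and BA2 stand for. Arches of many embryos were pooled, and proteins were cross-linked to one another as well as to DNA, so a peak need not mean direct contact with DNA. The Pygo2 list holds 7150 peaks from 15009636 tags and the β-catenin list 1079 peaks from 13672937 tags. Each list rests on 1 library, so no value has a replicate error, no test was made, and the counts describe these libraries.

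A PHD finger is a small zinc-binding fold that in many proteins reads the methylation state of the histone H3 tail, and proteins that carry one often bring an enzyme or a larger complex to chromatin. Pygo2 itself is a PHD finger protein: it is bridged to β-catenin, the nuclear effector of canonical Wnt signalling, by Bcl9. The Phf proteins have different roles. Phf2 and Phf8 belong to a family of histone demethylases, and mutations of PHF8 in humans cause intellectual disability with cleft lip or palate. Phf12 belongs to a Sin3 corepressor complex, Phf10 to the PBAF chromatin remodelling complex, Phf20 to the NSL histone acetyltransferase complex and Phf21a to the complex of the histone demethylase Kdm1a. Phf23 has been described as an inhibitor of autophagy, Phf13 as a chromatin condensation factor, Phf3 as a protein that binds RNA polymerase II, and mutations of PHF6 in humans cause Börjeson-Forssman-Lehmann syndrome.

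The places where peaks cover the start of a Phf gene are shown first. RefSeq (GRCm38.p6) gives start windows of 300 bases, 250 before and 50 after a start site, for 8 of the 10 genes. A Pygo2 peak reached into the windows of Phf23, Phf13 and Phf20, and a β-catenin peak into that of Phf23. At Phf23 the capitals mark the 42 bases that lie in peaks of both lists, and at Phf13 and Phf20 the bases in the Pygo2 peak, all written along the strand of the gene. The windows are chr11:69995516-69995815 (plus strand) for Phf23, chr4:151996130-151996429 (minus strand) for Phf13 and chr2:156196397-156196696 (plus strand) for Phf20.
Phf23 start window: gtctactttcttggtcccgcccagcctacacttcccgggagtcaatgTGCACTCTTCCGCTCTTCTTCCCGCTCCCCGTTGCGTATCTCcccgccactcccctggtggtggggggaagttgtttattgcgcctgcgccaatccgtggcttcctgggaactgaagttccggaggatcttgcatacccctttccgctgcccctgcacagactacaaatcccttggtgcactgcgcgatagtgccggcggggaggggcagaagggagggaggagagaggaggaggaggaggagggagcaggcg
Phf13 start window: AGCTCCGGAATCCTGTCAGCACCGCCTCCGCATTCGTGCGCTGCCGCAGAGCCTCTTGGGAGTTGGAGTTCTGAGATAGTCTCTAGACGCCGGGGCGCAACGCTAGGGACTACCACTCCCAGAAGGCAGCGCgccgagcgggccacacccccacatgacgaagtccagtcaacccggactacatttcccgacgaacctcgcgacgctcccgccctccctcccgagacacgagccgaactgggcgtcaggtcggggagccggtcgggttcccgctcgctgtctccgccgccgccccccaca
Phf20 start window: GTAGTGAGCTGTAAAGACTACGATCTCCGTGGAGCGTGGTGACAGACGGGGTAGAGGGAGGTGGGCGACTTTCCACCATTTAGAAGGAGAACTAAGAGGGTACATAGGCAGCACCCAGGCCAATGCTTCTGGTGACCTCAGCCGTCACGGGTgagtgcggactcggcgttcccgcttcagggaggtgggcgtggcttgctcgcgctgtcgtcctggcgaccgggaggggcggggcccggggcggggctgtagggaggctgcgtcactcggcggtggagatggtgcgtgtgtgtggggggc

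The Phf23 window holds the whole Pygo2 peak of 167 bases, which ends before the annotated start, and 89 bases of the β-catenin peak, which lies further upstream. The Pygo2 peak covers 132 bases of the Phf13 window and 152 bases of the Phf20 window, in both cases before the start site. Base composition of the 8 windows ranged from 61.0 to 87.0% G or C, with a median of 68.7%, against a median of 56.3% over 17492 genes with such a window. The highest value, 87.0%, was that of Phf2 and of Phf10, whose windows hold no peak, and the lowest, 61.0%, that of Phf8. A set of 5 short words was searched on both strands in 1 window per gene, each counted on its own even where words share bases. CTTTGAT, a core of TCF/LEF sites, had no match in the 8 windows and a match in 3.28% of all windows. GGGCGG, the GC box, had a match in 8 of 8 windows and in 46.3% of all windows. This word holds only G and C, and the 8 windows had the higher median G or C content given above. Whether the matches go with base composition was not tested. CCAAT had a match in 4 of 8 (Phf8, Phf12, Phf20 and Phf23) and in 39.2% of all windows. The E-box CACGTG (7.91% of all windows) and the ETS word CCGGAAG (11.9%) had no match in the 8. At Phf23 the GC box lies in the part under the β-catenin peak and not under the Pygo2 peak, and the CCAAT word lies under the Pygo2 peak and not under the β-catenin peak. Neither is therefore in the 42 bases shared by both. At Phf20 the CCAAT word lies under the Pygo2 peak, and at Phf13 no word does.

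Peaks were counted for a gene when their centre lay inside it or within 50 kb of it. Pygo2 peaks were found at 6 of the 10 Phf genes (Phf2, Phf12, Phf13, Phf20, Phf21a and Phf23), and 46.5% of all protein-coding genes had one. β-catenin peaks were found at 4 of the 10 (Phf8, Phf12, Phf20 and Phf23), against 11.2% of all genes. Peaks of both lists were present at 3 of these genes, Phf12, Phf20 and Phf23, and overlapping peaks of both at Phf20 and Phf23; over all genes the shares were 9.23% and 4.05%. In the whole lists, 273 peaks of each overlapped the other, which is 3.82% of the Pygo2 peaks and 25.3% of the β-catenin peaks. Phf3, Phf6 and Phf10 had no peak of either list, as had 51.5% of all genes. Since Phf23 and Phf12 were picked for their Pygo2 peaks and the list was drawn up with these data known, the shares are a description and carry no comparison.

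**Figure D1:**
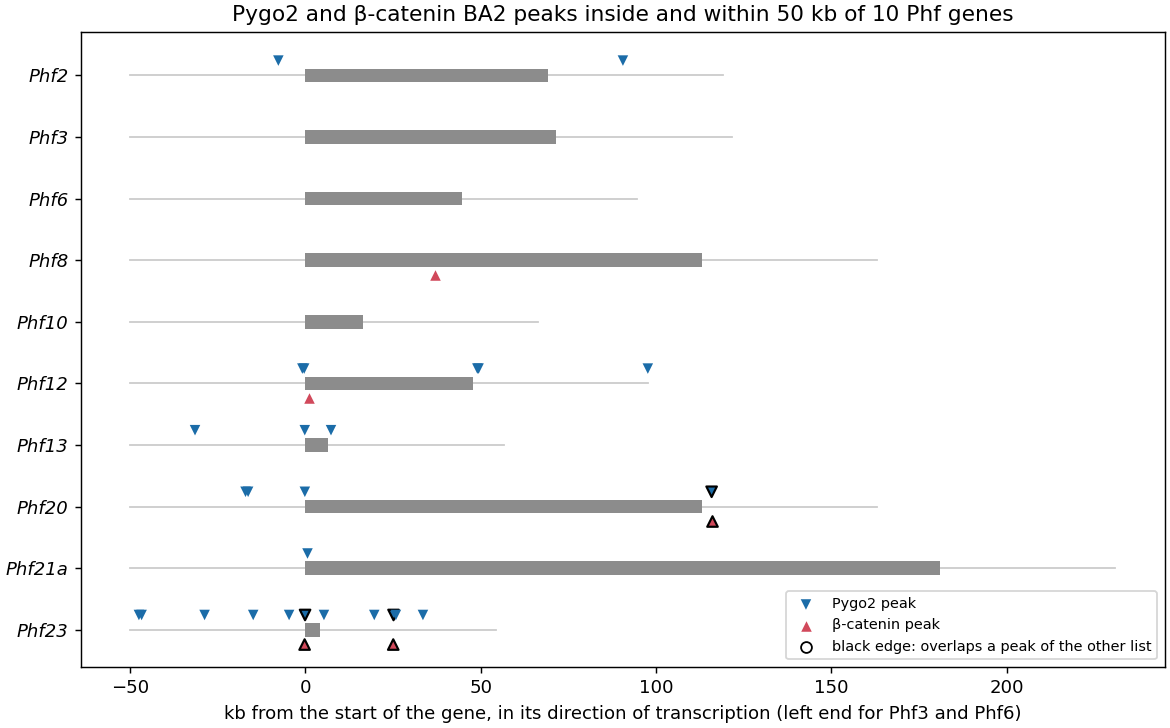
Pygo2 peaks (downward triangles) and β-catenin peaks (upward triangles) along each Phf gene (grey bar) and 50 kb to either side (thin line), in kb from the start of the gene. Phf23 has 11 Pygo2 peaks, Phf3, Phf6 and Phf10 have no peak, and the black-edged pairs that overlap are at Phf20 and Phf23.

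In all, 26 Pygo2 peaks and 5 β-catenin peaks fell into the windows, and none counted for more than 1 of the genes. Only 1 Pygo2 peak (in Phf21a) and 2 β-catenin peaks (in Phf8 and Phf12) lay inside the genes themselves. For 7 of the 26 Pygo2 peaks and 3 of the 5 β-catenin peaks the Phf gene was the nearest protein-coding gene. The remaining 19 and 2 lay nearer to a neighbour. Counted by gene and within the windows, 6 Phf genes were the nearest gene of some Pygo2 peak, against 22.8% of all genes, and 3 that of some β-catenin peak, against 3.99%. Within 1 kb of an end of a Phf gene there were 7 Pygo2 peaks at 5 genes (Phf12, Phf13, Phf20, Phf21a and Phf23) and 1 β-catenin peak, at Phf23. Over all genes, 16.5% had a Pygo2 peak that close to an end and 2.01% had one for β-catenin. Measured to an annotated start site, where 1 is given, 4 genes (Phf12, Phf13, Phf20 and Phf23) had a Pygo2 peak within 1 kb, against 17.3% of 17492 genes, and Phf23 a β-catenin peak, against 2.16%. The outermost Pygo2 peak counted was 49.8 kb from Phf12, and the nearest one not counted 51.8 kb from Phf20.

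All peaks carry the same deposited score, 1, and only the place in the list, whose order the headers do not explain, was left to tell them apart. The order is coarse. In the Pygo2 list 99.3% of adjacent peaks stood in genome order, in 50 runs, the longest of 981 peaks. The β-catenin list falls into 40 runs in the same way, the longest of 255 peaks. Within a run the position follows the coordinates, so only the run, and not the exact position, can tell one peak from another. Of the 26 Pygo2 peaks, 16 lie around Phf23 and Phf12, whose early-listed Pygo2 peaks chose the set, so their median at 10.6% of the list reflects that choice. The 10 Pygo2 peaks around the other Phf genes stood between 2.45 and 46.5% of the list, with a median of 38.0%. The β-catenin peaks stood at 12.2% of their list at Phf8 and 63.6% at Phf20, and between 5.1 and 25.7% at Phf23 and Phf12.

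**Figure D2:**
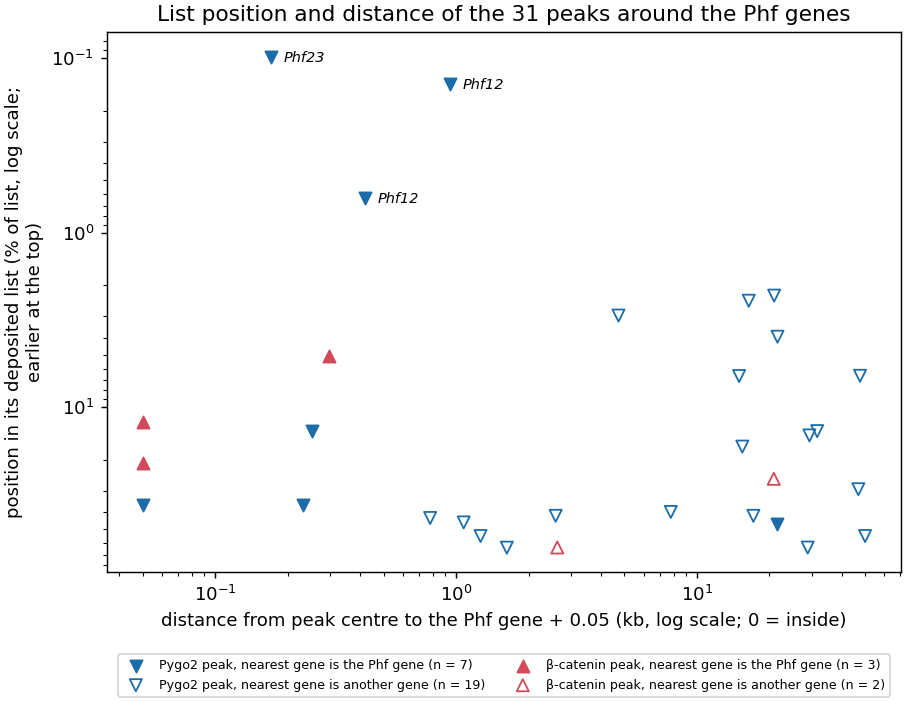
Position of each of the 26 Pygo2 and 5 β-catenin peaks in its own list (per cent of the list, log scale, earlier at the top) against its distance to the Phf gene (kb, log scale, 0.05 kb added). Filled symbols have the Phf gene as their nearest gene; the 3 peaks before 1% of the list are at Phf23 and Phf12.

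Phf23 (chromosome 11, 69995766 to 70000011, plus strand) had the most peaks of the set and the earliest-listed one. Its start peak in the Pygo2 list spans 69995563 to 69995729 and is centred 120 bp upstream of the start. It stood at position 7, in the third run of the list, which covers positions 6 to 8. The β-catenin peak at the same place spans 69995436 to 69995604, is centred 246 bp upstream and stood at position 55 of its list, in a run from 52 to 58. The centres are 126 bp apart and the peaks share the 42 bases printed above. Gabarap, which encodes a protein of the autophagosome membrane, ends 697 bp before the Pygo2 centre and 571 bp before the β-catenin centre, so that both peaks sit in the short stretch between the genes, nearer to Phf23.

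The other 10 Pygo2 peaks of the Phf23 window lay nearer to one of its neighbours, and 9 other protein-coding genes reach into this window. Going away upstream, a peak at 69991011 to 69991177 (position 213) lay 276 bp outside Gabarap, at the side of its start, and 4.67 kb from Phf23. A peak at 69980772 to 69980938 (position 473) lay inside Elp5, an Elongator subunit gene, 14.9 kb from Phf23. That at 69966905 to 69967071 (position 4552) lay inside the claudin gene Cldn7, 28.8 kb away. The pair at 69948943 to 69949109 (position 2109) and 69948170 to 69948336 (position 472) lay 810 bp and 37 bp from Slc2a4, the gene of an insulin-responsive glucose transporter, 46.7 and 47.5 kb away. Each of these upstream peaks was thus inside or within 1 kb of another gene.

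Downstream of Phf23, the Pygo2 peak at 70000953 to 70001119 (position 3269) lay 1025 bp past the end of the gene and inside Dvl2, 444 bp from the start of that gene. Dvl2 encodes a Dishevelled protein, which transmits the Wnt signal from the receptor. The peak at 70015305 to 70015471 (position 1203) lay inside Acadvl, 40 bp from the start of this fatty acid oxidation gene and 15.4 kb from Phf23. Last came a group of 3 inside Dlg4, the gene of the synaptic scaffold PSD-95. They spanned 70020796 to 70020962 (position 164), 70021478 to 70021644 (position 282) and 70029186 to 70029352 (position 1034), at 20.9, 21.6 and 29.3 kb from Phf23. The first of these overlapped the second β-catenin peak of the window, at 70020717 to 70020885 (position 277), by 90 bp. A count of 11 or more Pygo2 peaks in the window was reached by 0.233% of all protein-coding genes, whose highest count was 19 and whose median was 0. Phf23 was picked for a Pygo2 peak, and windows of neighbouring genes can hold the same peaks, so this share is a description only. Of the 11 peaks, 1 had Phf23 as its nearest gene.

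**Figure D3:**
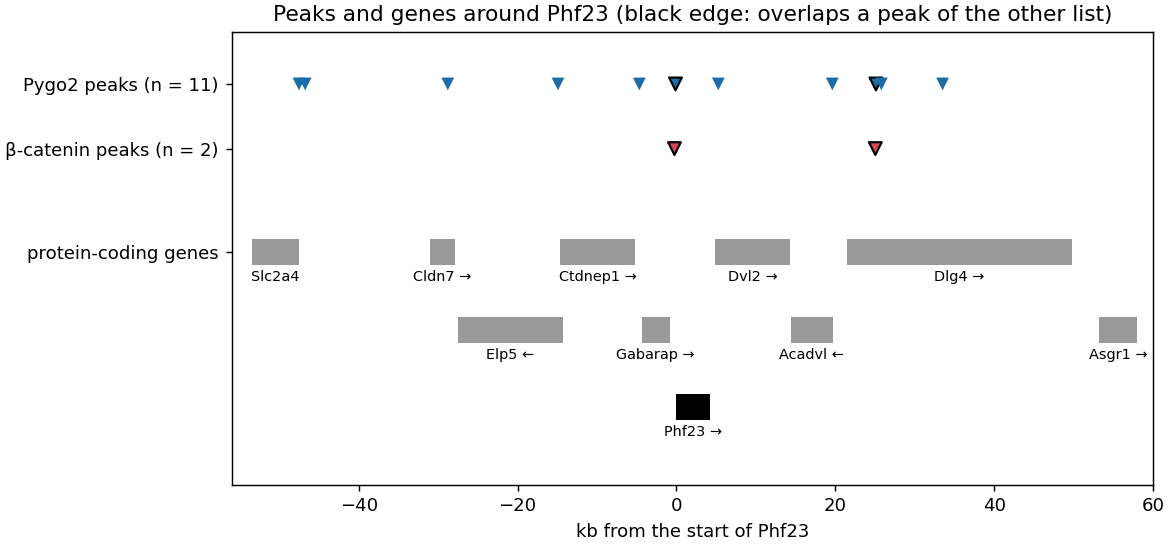
Peaks and protein-coding genes in kb from the start of Phf23 (black bar), with arrows for the direction of transcription where the annotation used gives it. Of the 11 Pygo2 and 2 β-catenin peaks, only the overlapping pair at 0 kb has Phf23 as its nearest gene; the other overlapping pair lies in Dlg4.

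Phf12 (chromosome 11, 77982733 to 78030539, plus strand) had peaks of both lists around its start that did not overlap. Pygo2 peaks lay before the gene at 77981761 to 77981927 (position 10, in the run from 9 to 12) and at 77982281 to 77982447 (position 45, in the run from 42 to 47). Their centres were 889 and 369 bp outside the gene, or 0.972 and 0.452 kb before the annotated start site at 77982816, and 353 bp separate the peaks. The β-catenin peak, 77983772 to 77983940 (position 226, in the run from 196 to 243), lay inside the gene, 1040 bp past the start site, and 1324 bp separate it from the nearer Pygo2 peak. The start site thus stands between the Pygo2 peaks on one side and the β-catenin peak on the other, and none of the 3 reached into its 300-base window, from which the nearest Pygo2 peak was 118 bp away. With a distance of 1123 bp to the nearer gene end, here the first base of the gene, the β-catenin peak was just outside the 1 kb class. All 3 had Phf12 as their nearest gene, the next being Sez6 at 2.79 kb or more. Phf12 and Phf13 each had at least 2 Pygo2 peaks within 1 kb of a gene end, as had 1.64% of all genes. The early-listed pair at Phf12 is part of what chose the set, so this share is a description only. At Phf13 the 2 peaks stood at opposite ends of the gene, and 1 of them lay inside Thap3.

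**Figure D4:**
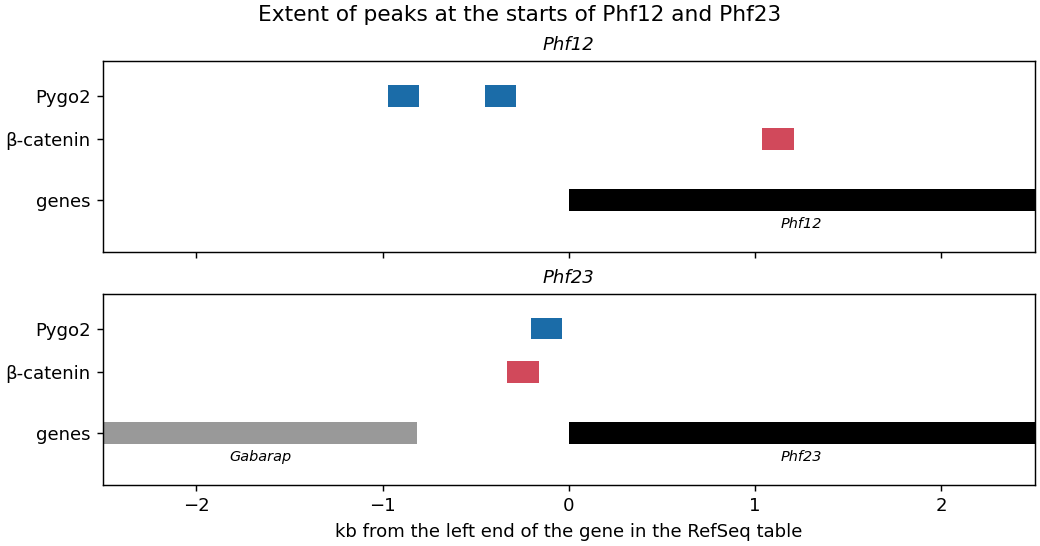
Extent of the Pygo2 and β-catenin peaks within 2.5 kb of the left ends of Phf12 and Phf23, in kb. At Phf12 the 2 Pygo2 peaks precede the gene and the β-catenin peak lies inside it, 1123 bp from its first base. At Phf23 the peaks of both lists overlap by 42 bp before the gene.

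At the far end of Phf12 the Pygo2 peaks lay nearer to its neighbours. The pair at 78031669 to 78031835 (position 3908) and 78032030 to 78032196 (position 4559) lay 561 and 200 bp before the start of Dhrs13, a dehydrogenase gene, and 1.21 and 1.57 kb past the end of Phf12. Both also lay inside Dhrs13os, a long non-coding RNA gene. The outermost, at 78080299 to 78080465 (position 3909), was 1 bp from the start of Eral1, whose product acts on the mitochondrial ribosome, and 49.8 kb from Phf12. These 3 peaks stood in the second 50% of the list, in runs from 3446 to 4122 and from 4123 to 4751. The pair at the start of Phf12 is early in the list by the choice of the set, so no contrast is drawn.

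Phf13 (chromosome 4, 151989631 to 151996179, minus strand) had 3 Pygo2 peaks and no β-catenin peak. The peak at 151996298 to 151996464 (position 977, in the run from 939 to 1100) was centred 202 bp before its start, in the window printed above. Another, at 151988818 to 151988984 (position 3085), lay 730 bp beyond the other end of the gene but inside Thap3, 85 bp from its start. The third, at 152027605 to 152027771 (position 978), lay 31.5 kb away, 13 bp from Zbtb48, the gene of a telomere-binding zinc finger protein. Positions 977 and 978 belong to 1 run and do not rank these peaks. The nearest β-catenin peak was 1430 kb from Phf13, outside the window.

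Phf20 (chromosome 2, 156196647 to 156309953, plus strand) had 4 Pygo2 peaks and 1 β-catenin peak. The Pygo2 peak at 156196382 to 156196548 (position 2594, in the run from 2544 to 2926) was centred 182 bp before its start and had no β-catenin peak within 116 kb. At the other end, a Pygo2 peak at 156312410 to 156312576 (position 2999) and a β-catenin peak at 156312449 to 156312617 (position 686) overlapped by 128 bp, with centres 40 bp apart. This shared place lay 2.54 to 2.58 kb past the end of Phf20, inside Scand1, at 211 and 171 bp from the start of that gene. The remaining Pygo2 peaks, at 156180202 to 156180368 (position 175) and 156179464 to 156179630 (position 2998), stood at annotated starts of Rbm39, a splicing factor gene, 47 and 33 bp from them and 16.4 and 17.1 kb from Phf20. The earliest-listed peak around Phf20 was thus the one 47 bp from Rbm39, and the shared place lay in Scand1.

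Phf21a (chromosome 2, 92183751 to 92364667, plus strand) had a single peak, for Pygo2, at 92184123 to 92184289 (position 2585). It lay inside the gene as annotated, 455 bp from its first base, but 1.28 kb before the first start site that has a window. The nearest other protein-coding gene to the peak, Creb3l1, was 160036 bp away. Phf2 (chromosome 13, 48801750 to 48870885, minus strand) had Pygo2 peaks on both sides and none inside or within 1 kb. The peak at 48878540 to 48878706 (position 2844) lay 7.74 kb before its start, 274 bp from the long non-coding RNA gene Phf2os1 and 593 bp from Fam120a. The peak at 48780256 to 48780422 (position 3325) lay 21.4 kb past its other end, and Phf2 was still its nearest protein-coding gene.

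Phf8 (chromosome X, 151520641 to 151633859, plus strand) was the one gene of the set with a β-catenin peak and no Pygo2 peak in its window, a pattern found at 1.93% of all genes. The β-catenin peak, at 151557447 to 151557615 (position 132, in the run from 116 to 132), lay inside the gene, 36.9 kb past its start site. The nearest Pygo2 peak was 246 kb from it and 169 kb from Phf8. Fam120c, the nearest other protein-coding gene, was 83.4 kb from the peak. Exons and introns are not told apart by the annotation used, so the part of the gene in which the peak lies was not determined.

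Phf3, Phf10 and Phf6 had no peak in the window. The nearest Pygo2 peak was 76.4 kb from Phf3 (chromosome 1, 30802342 to 30873922; peak 30950215 to 30950381, position 1674). It was 147 kb from Phf10 (chromosome 17, 14944994 to 14961260; peak 15108662 to 15108828, position 7074), and 260 kb from Phf6 (chromosome X, 52912214 to 52956961; peak 52652065 to 52652231, position 3439). The nearest β-catenin peaks lay 3120 kb from Phf3, 4710 kb from Phf10 and 13800 kb from Phf6. Phf3 has no other protein-coding gene within 50 kb and Phf6 has 1, while Phf10 has 6, so these genes differ in how crowded their surroundings are. Places with fewer than 10 tags for Pygo2 or 11 for β-catenin were not called by the authors, so binding below these limits was not detectable. The authors also required at least 2-fold over IgG and over the surrounding 10000 bp. Of 21859 putative Pygo2 peaks 7150 were kept, and of 4036 putative β-catenin peaks 1079. A missing peak therefore need not mean few tags.

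Distances to the nearest peak varied widely within the set. The nearest Pygo2 peak was 0.12 to 0.455 kb from a gene end at Phf23, Phf20, Phf13, Phf12 and Phf21a, in that order, and from 6.67 to 13.6% of all genes had a nearer one. It was 7.74 kb at Phf2 and from 76.4 to 260 kb at Phf3, Phf10, Phf8 and Phf6. For β-catenin the order was Phf23 (0.246 kb), Phf12 (1.12 kb), Phf20 (2.58 kb) and Phf8 (36.9 kb), then a gap to Phf21a at 806 kb. The median over the 10 genes was 4.1 kb for Pygo2, against 64.7 kb over all genes, and 1120 kb for β-catenin, against 645 kb over the 21631 genes on chromosomes with a β-catenin peak. The medians of the set lie to opposite sides of those of all genes, and with 10 genes chosen partly on their peaks this is a description only.

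**Figure D5:**
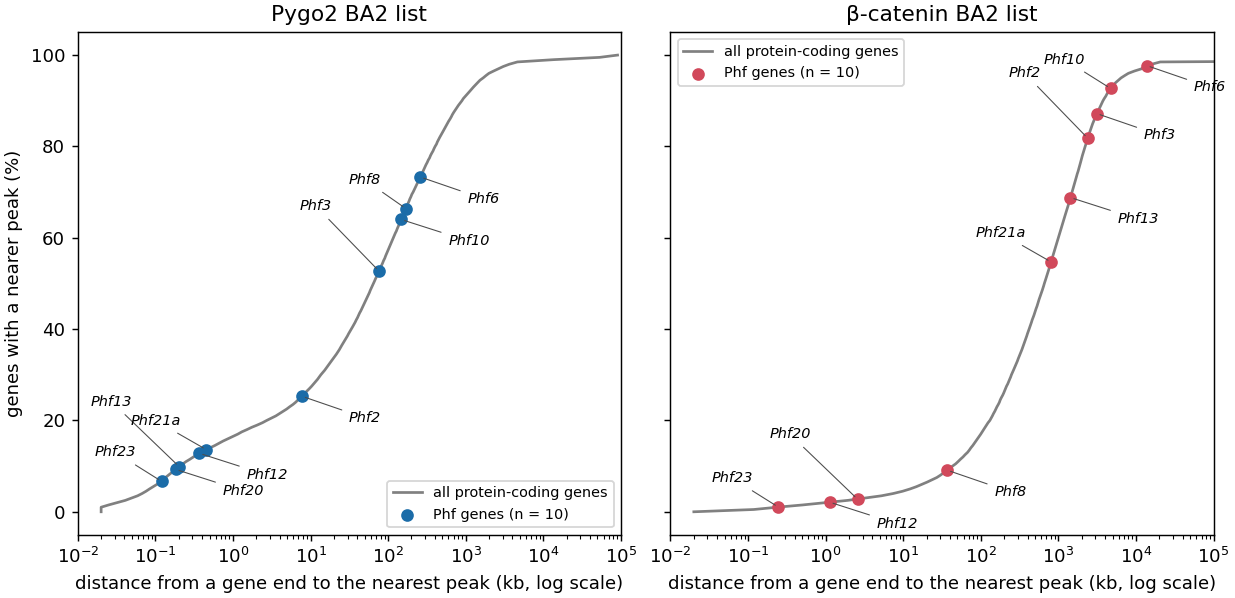
Share of all protein-coding genes with a nearer peak (per cent) against the distance from a gene end to the nearest Pygo2 peak (left) or β-catenin peak (right), in kb on a log scale, with the 10 Phf genes as points. For Pygo2, 5 Phf genes lie at 0.455 kb or nearer; for β-catenin, 6 lie at 806 kb or beyond.

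By the rule used to find genes of the same pattern, Phf23 was 1 of 295 protein-coding genes (1.35%) with both a Pygo2 and a β-catenin peak in the 1 kb around an end, and the only one among the 10. The genes of this kind whose Pygo2 peak stood closest to it in the list were the histone gene H4c8 (position 8, in the same run) and the adjacent genes Tacc3 and Tmem129, which share the peak at position 24. At all 3 the nearest Pygo2 peak does not overlap a β-catenin peak, whereas at Phf23 it does. The likeness is thus in list position and distance alone.

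Other PHD finger genes and partners of the Phf proteins were counted in the same way. Both lists were drawn up with earlier results of these data known, so their counts are a description. Of 19 further PHD finger genes, 9 had a Pygo2 peak inside or within 50 kb and 4 a β-catenin peak, against the 46.5% and 11.2% of all genes given above. Overlapping peaks stood at Kdm7a, the third member of the demethylase family of Phf2 and Phf8, and at Pygo1. At Kdm7a the Pygo2 peak (chromosome 6, 39205239 to 39205405, position 2313) and the β-catenin peak (39205075 to 39205243, position 412) met in 5 bp only, 1.45 and 1.61 kb from a gene end, inside the gene. At Pygo1 the β-catenin peak (position 269) was 32.9 kb from the nearer end of the gene. The others with a Pygo2 peak closest to an end were Phf1 at 0.026 kb, a Polycomb-associated gene, Phf14 at 0.116 kb, Phf7 at 0.15 kb and Pygo2 itself at 0.317 kb. Phf7 also had a β-catenin peak at 0.197 kb, which did not overlap. The Pygo2 gene thus has a Pygo2 peak near an end, and its nearest β-catenin peak was 110 kb away.

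Of 24 genes of chromatin complexes, most of them partners of the Phf proteins, 19 had Pygo2 peaks inside or within 50 kb, against 46.5% of all genes. β-catenin peaks were found there at 4 of the 24, against 11.2% of all genes. Within 1 kb of an end, 10 of the 24 had a Pygo2 peak and 1 a β-catenin peak, against 16.5% and 2.01% of all genes. With 24 genes, the β-catenin counts are near these shares and the Pygo2 counts lie above them. Neither the β-catenin nor the Pygo2 counts carry a comparison, as the list was drawn up with earlier results of these data known. Overlapping peaks were found at Smarca4, the ATPase of BAF and PBAF, and in the window of Hmg20b, a partner of Kdm1a. At Smarca4 the Pygo2 peak (chromosome 9, 21615925 to 21616091, position 461) and the β-catenin peak (21615819 to 21615987, position 179) shared 63 bp. Their centres were 0.098 and 0.203 kb from the nearer end of the gene. Among the other partner genes, the Pygo2 peaks closest to an end were at Kat8 (0.02 kb), the acetyltransferase of the NSL complex, its subunit Mcrs1 (0.038 kb), Ogt (0.111 kb) and Wdr5 (0.245 kb). Phf20 shares the NSL complex with these, and had its own Pygo2 peak at 0.182 kb. They were named because their peaks are the closest, and other NSL genes of the list differ. The nearest Pygo2 peak was 0.343 kb from an end of Hcfc1, but 6.12 kb at Kansl2, 22.3 kb at Kansl1 and 188 kb at Kansl3. Median numbers of Pygo2 peaks per window were 1.5 for the 10 Phf genes, 0 for the further PHD finger genes, 2 for the partners and 0 over all genes.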

How the data were processed

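Per the file headers, the authors called peaks with HOMER findPeaks in factor style, 1 library per list without pooling, against IgG BA1, at a false discovery rate of 0.001 and at least 2-fold over IgG and over the surrounding 10000 bp. Tools in the submitters' processing notes are HOMER, Bowtie2 and Bowtie, with no version, and the build is mm10. The deposited score is 1 for every peak. List position stood in for it. Widths are 167 bp (Pygo2) and 169 bp (β-catenin). Coordinates are 1-based on mm10, and genes, start windows and sequences came from RefSeq GRCm38.p6. Distances run from the peak centre; peaks overlap from 1 bp on. Intervals and tests were not computed, since each list is 1 library. The counting was tested on simulated peaks. Computation used pandas 2.3.3, NumPy 2.4.6 and Matplotlib 3.10.9 under Python 3.11.15.

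The members and lists were chosen with earlier results of these data known. Named are the 10 Phf genes with every peak in their windows and the nearest other gene, genes of the 2 further lists with overlapping peaks plus up to 4 with the Pygo2 peak nearest to an end, and the 3 genes most like Phf23. Long non-coding genes were named after their values were seen. Alternatives were the window, the gene end distance, the nearest gene, the first 50% of each list, peak edges and the overlap rule. For the short words, every start window was also used, which was not planned beforehand.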

Additional observations from a re-analysis of the deposited data

How the results depend on the processing

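Counts of Phf genes with a Pygo2 peak ranged from 6 to 7 with windows of 10 and 100 kb, nearest genes only, the first 50% of the list or peak edges, and those with a β-catenin peak from 3 to 4. Within 5 kb of a gene end in place of 1 kb, β-catenin peaks stood at 3 Phf genes in place of 1, the additions being Phf12 and Phf20. Overlapping peaks fell to 1 gene, Phf23, with nearest genes only and with the first 50% of each list. With an overlap of at least 50% of the shorter peak the count stayed at 2 genes. At Phf23 the pair in Dlg4, with 90 bp, met this rule, and the pair at the start, with 42 bp, did not. With a window of 10 kb, chosen after seeing the data, β-catenin peaks stood at 2 further PHD finger genes and at 2 partner genes, in place of 4 each. Of 38 alternatives, 33 stayed within 1.5 times the main count. These include the word searches over all 11 start windows of the Phf genes in place of 8. There the TCF/LEF, E-box and ETS words again had no match, and the other words were counted over more windows. Those searches therefore say little about stability. No paired analysis was possible because each list is 1 library. Calling minimums of 10 and 11 tags and the 2-fold requirements over IgG and the surrounding 10000 bp limit what a missing peak shows.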
